A study of Homo sapiens with 32 samples.

Results

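The genes described here are 10 targets of the transcriptional coactivators YAP and TAZ and of their DNA-binding partners, the TEAD factors: CCN1, CCN2, ANKRD1, AMOTL2, AJUBA, LATS2, AXL, CRIM1, F3 and ARHGEF17. They were chosen by name as a list, matched from Ensembl identifiers to gene symbols, and are 10 of the 48804 genes in the count table. All 10 passed the filter on low counts at both time points. The cells were MDA-MB-468, an established human triple-negative breast cancer line grown as a monolayer. They received PBS (control), 0.5 μM salinomycin (Sal, a potassium ionophore), 15 μM dasatinib (Das, an inhibitor of SRC and ABL family kinases) or both drugs together (S + D, labelled 15.5 μM), for 24 or 72 h. Each of the 8 conditions had 4 libraries, described as biological replicates, so that 32 libraries were compared, all from this 1 line.

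In the Hippo pathway the kinases STK3 and STK4 activate LATS1 and LATS2, which phosphorylate YAP and TAZ and keep them out of the nucleus. Unphosphorylated YAP and TAZ bind TEAD factors at enhancers and promoters and switch on genes for secreted matrix proteins, cytoskeletal regulators and inhibitors of YAP itself, and the last of these form a feedback loop. SRC family kinases and tension in the actin cytoskeleton are known activators of YAP in epithelial cancer cells. Many of the targets are also under the control of the serum response factor SRF and of AP-1, and hence they need not move as a unit.

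Total counts ran from 25692561 to 42769687 per library. The epithelial genes EPCAM (206 to 393 CPM, which are read counts scaled to a common library size), CDH1 and KRT18 and the receptor EGFR (2791 to 5921 CPM) were expressed in every library. The basal keratins varied more, KRT5 from 27.9 to 80.6 CPM with Sal at 72 h up to 818 to 915 CPM in the controls of 24 h, and KRT17 from 7.67 to 236 CPM over all libraries. PGR reached 0.0894 CPM at most, and ESR1 was between 3.64 and 11.97 CPM. Of 6 leukocyte, endothelial and fibroblast markers, PTPRC, CD3E, VWF and COL1A2 stayed at or under 0.330 CPM and PDGFRB at or under 2.22 CPM. The sum of the 6 was almost wholly COL1A1. It lay between 18.5 and 37.2 CPM in the controls of 24 h and between 68.7 and 122 CPM with S + D at 72 h, and its part in the results below was not tested. In every condition 1 library carries no replicate number. These 8 unnumbered libraries deviated together from their groups, so that values from the 3 numbered libraries alone are given beside the results that depend on them.

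**Figure D1:**
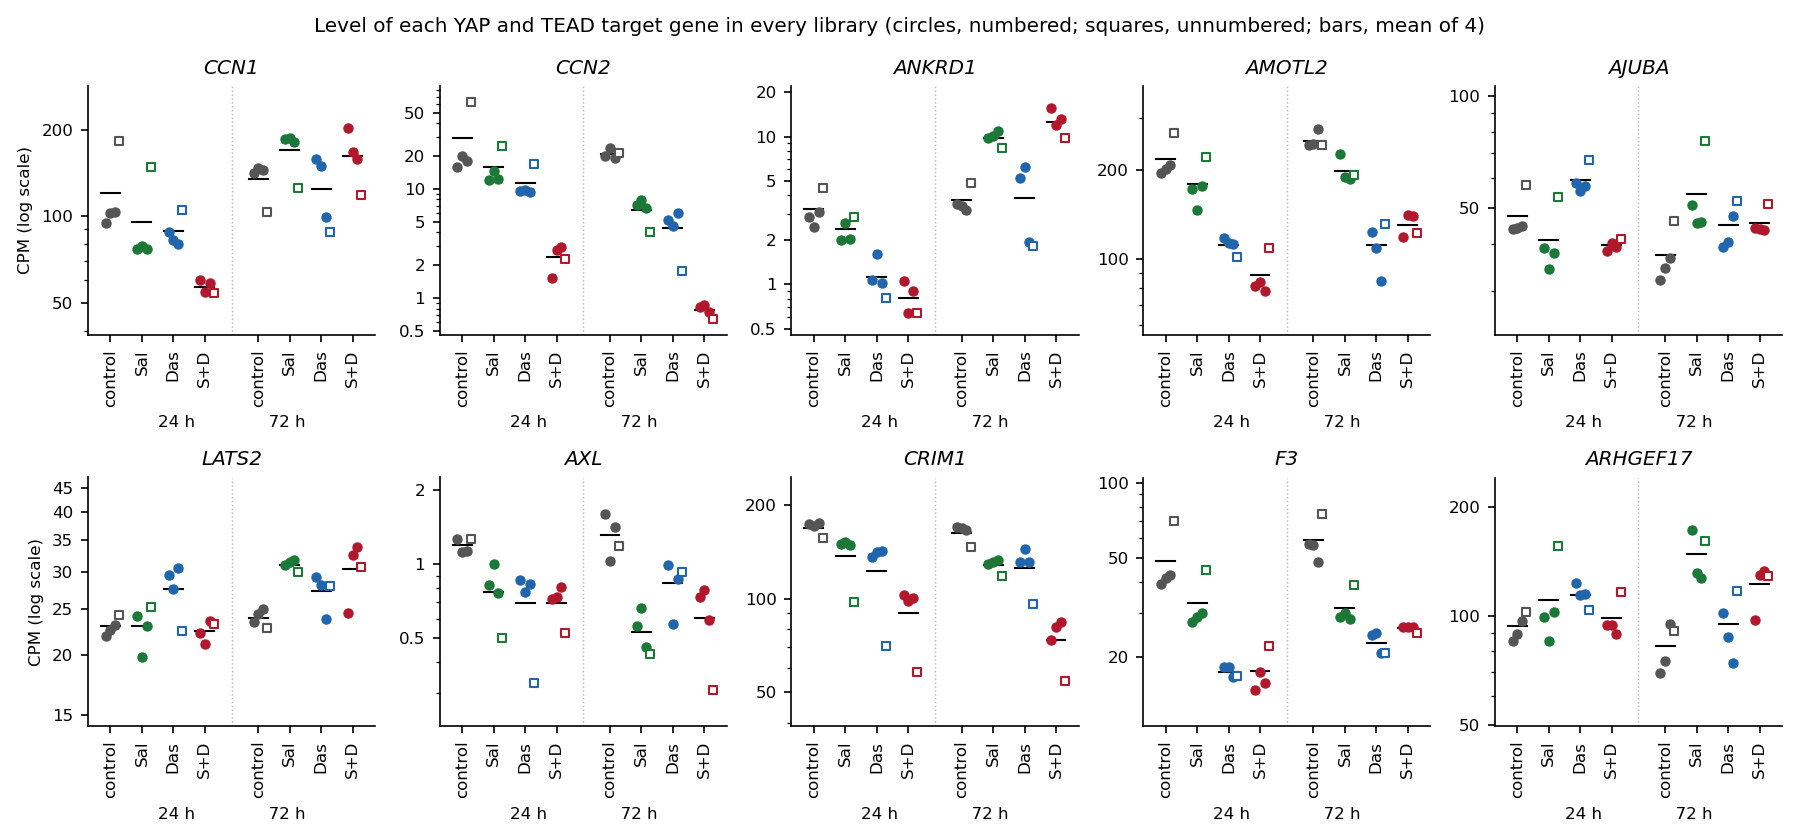
Level of each gene in every library, in CPM on a log scale, by condition at 24 h (left of the dotted line) and 72 h (right). Circles are the numbered libraries, open squares the unnumbered libraries and bars the mean of 4; CCN2 falls to between 0.645 and 0.864 CPM with S + D at 72 h, and ANKRD1 lies below the controls with S + D at 24 h and above them at 72 h.

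The promoter sequences of CCN2 and ANKRD1 are shown because these genes moved furthest, and in opposite directions at 72 h. Both are the 250 bases before the transcription start, on the coding strand, from RefSeq annotation of GRCh38.p14, with each match to the TEAD motif GGAATG (searched on both strands) in capitals. The CCN2 window lies at chr6:131951373-131951622 on the minus strand and the ANKRD1 window at chr10:90921088-90921337 on the minus strand.
CCN2: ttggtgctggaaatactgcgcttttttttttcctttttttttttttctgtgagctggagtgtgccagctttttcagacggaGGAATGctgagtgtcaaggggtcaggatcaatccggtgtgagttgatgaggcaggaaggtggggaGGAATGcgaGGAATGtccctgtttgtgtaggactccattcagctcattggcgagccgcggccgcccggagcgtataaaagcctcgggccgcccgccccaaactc
ANKRD1: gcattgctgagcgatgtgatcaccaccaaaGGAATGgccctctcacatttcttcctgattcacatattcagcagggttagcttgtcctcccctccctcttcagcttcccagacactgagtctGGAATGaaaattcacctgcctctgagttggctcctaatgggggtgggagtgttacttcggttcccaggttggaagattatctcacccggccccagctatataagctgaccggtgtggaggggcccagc
The CCN2 window holds 3 matches, which begin 169, 104 and 95 bases before the start, and the last 2 of them are separated by only a few bases. The ANKRD1 window holds 2 matches, which begin 220 and 128 bases before the start. Windows were found for 7 of the 10 genes, with 2 windows each for AMOTL2, AJUBA and AXL, and CCN1, CRIM1 and ARHGEF17 were not matched. A further match was present in a window of each of AMOTL2, AJUBA and AXL, so that 5 of 10 windows held the motif, against 11.9% of 35116 windows over all genes. The AP-1 motif TGANTCA was present in the windows of ANKRD1 and F3, that is in 2 of 10 windows against 6.57% of all. The CArG box, the motif of SRF, was present in 0 of 10 windows against 1.16% of all. These matches describe the letters of the windows and were not tied to any measurement of binding.

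In the controls of 24 h the order of the genes by CPM per kilobase of exon was AMOTL2 (33.7 ± 5.12, SD, n = 4), CCN1 (32.7 ± 11.3), CRIM1 (23.2 ± 1.17), F3 (16.8 ± 5.07), CCN2 (12.4 ± 9.61), ARHGEF17 (9.43 ± 0.797), AJUBA (8.09 ± 1.12), LATS2 (4.10 ± 0.184), ANKRD1 (1.80 ± 0.504) and AXL (0.233 ± 0.0161). Among neighbours in this order, the libraries overlapped for AMOTL2 and CCN1, CRIM1 and F3, F3 and CCN2, CCN2 and ARHGEF17, and ARHGEF17 and AJUBA. The controls of 72 h had the same order. With S + D at 72 h, CCN1 led (43.7 ± 9.40), CCN2 was in the ninth place with 0.330 ± 0.0419 CPM per kilobase, and ANKRD1 was in the seventh with 7.06 ± 1.39.

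Against the control of the same time point, none of the 10 genes was called higher at 24 h with all libraries. Among the numbered libraries 3 were, with Das. At 72 h some were called higher and others lower with Sal and with S + D, and 3 were called lower with Das. The share of all genes called higher also rose, from 4.55% to 26.3% with Sal and from 17.1% to 27% with S + D. The counts of higher calls are therefore not read as a trait of these genes. Each gene was tested in a quasi-likelihood fit of edgeR over the 16 libraries of a time point, and was called at an adjusted p (Benjamini-Hochberg over all genes tested) under 0.01. RNA from a whole culture does not tell fewer cells of a kind from less RNA per cell. With Sal at 24 h, 0 genes were called higher, against 4.55% of all genes tested, and 0 lower, against 2.23%. At an unadjusted p under 0.05 there were 4, but no share of all genes was taken at that limit, here or below. DESeq2 called 0 as well, and of 30783 genes with a count it called 1116 higher and 870 lower. With Das at 24 h, 0 were called higher (6.99% of all genes) and 3 lower (6.88%): ANKRD1, AMOTL2 and F3. With S + D at 24 h, 0 were called higher (17.1%) and 6 lower (16.5%), namely CCN1, CCN2, ANKRD1, AMOTL2, CRIM1 and F3. At an unadjusted p under 0.05, 3 genes were higher with Das and 0 with S + D at 24 h, and DESeq2 called 0 higher with either. Of 30783 genes with a count, DESeq2 called 1462 higher with Das and 2998 with S + D.

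At 72 h, 4 genes were called higher with Sal (26.3% of all genes tested) and 3 lower (26.8%). The genes that rose were ANKRD1, AJUBA, LATS2 and ARHGEF17, and those that fell were CCN2, AXL and F3. With Das at 72 h, 0 were called higher (10.5%, with 0 at an unadjusted p under 0.05 and 0 by DESeq2) and 3 lower (9.36%): CCN2, AMOTL2 and F3. DESeq2 called 2160 of 31010 genes with a count higher with Das at 72 h. With S + D at 72 h, 2 were called higher (27%), ANKRD1 and ARHGEF17, and 5 lower (27.9%), CCN2, AMOTL2, AXL, CRIM1 and F3. With S + D the 10 genes had a median log2 fold change of -0.96 at 24 h and -0.36 at 72 h. F3 was called lower in every comparison with the control except Sal at 24 h, and no other gene was called as often.

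The 24 h counts depended on how the unnumbered libraries were treated. Among the numbered libraries alone, 6 genes were called lower with Sal at 24 h (CCN1, CCN2, AMOTL2, AJUBA, CRIM1 and F3), where 10.9% of all genes tested were. With Das 9 were called (6 lower and 3 higher, against 18.7% and 20.6% of all genes) and with S + D 6 were called lower (29.4%). In a fit with the library number as a block (the paired fit), the unnumbered libraries formed a block of their own. It called 1 gene with Sal (F3), 6 with Das and 7 with S + D at 24 h. Of all genes, it called 18.7%, 27.4% and 50.2% in either direction. A term for the unnumbered libraries alone gave 2, 7 and 7 calls, against 22.2%, 31% and 52.6% of all genes. The paired fit thus does not separate pairing by number from the difference of the unnumbered libraries. The share of all genes called was also higher in all of these fits.

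**Figure D2:**
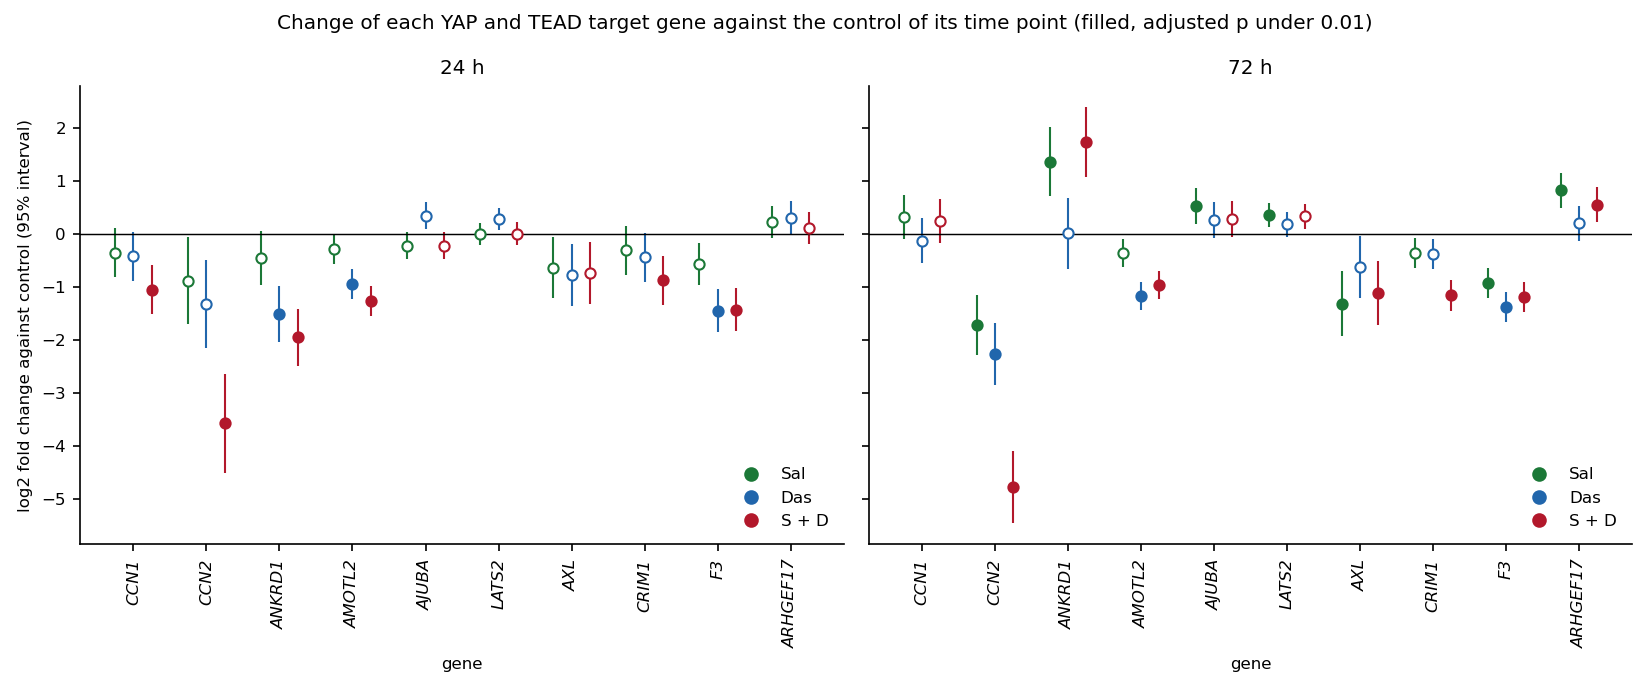
Log2 fold change of each gene against the control of its time point, with 95% intervals (from the SE and the degrees of freedom of the test, n = 4 libraries per condition), for Sal, Das and S + D at 24 h and 72 h. Filled points passed an adjusted p of 0.01; CCN2 has the lowest point at both times (-3.58 and -4.78 with S + D), and ANKRD1 moves from -1.95 at 24 h to 1.74 at 72 h with S + D.

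CCN2 (ENSG00000118523, chromosome 6 from 132269316 to 132272512 of GRCh37, minus strand) encodes connective tissue growth factor, a secreted matricellular protein and a widely used readout of YAP. At 24 h it was at 15.9, 19.9, 17.8 and, in the unnumbered library, 62.7 CPM in the controls, at 12.1, 14.7, 12.3 and 24.5 CPM with Sal and at 9.55, 9.67, 9.43 and 17.0 CPM with Das. With S + D it was at 1.54, 2.78, 2.93 and 2.28 CPM, so that all 4 S + D libraries lay below every library of the other conditions. The log2 fold change of S + D was -3.58 ± 0.44 (SE, edgeR adjusted p = 7.7e-06), and -2.87 in the numbered libraries. The changes with Sal (-0.89 ± 0.39) and Das (-1.33 ± 0.39) did not pass the test, and the control and treated libraries overlapped. In the paired fit CCN2 was called with Das at -1.18 (adjusted p = 0.000235), and among the numbered libraries it was called with both drugs, at -0.45 for Sal (adjusted p = 0.00791) and -0.87 for Das (adjusted p = 1.42e-05).

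At 72 h the controls were at 19.9, 23.6, 19.2 and 21.4 CPM of CCN2. Sal gave 7.18, 7.93, 6.73 and 4.04 CPM, Das 5.22, 4.61, 6.03 and 1.76 CPM, and S + D 0.832, 0.864, 0.745 and 0.645 CPM, which were 23 to 33 reads per library. Controls, single drugs and S + D formed 3 levels with no overlap, and only Sal and Das overlapped each other. CCN2 fell 3.30-fold with Sal (log2 fold change -1.72 ± 0.27, edgeR adjusted p = 3.01e-05), 4.81-fold with Das (-2.27 ± 0.28, adjusted p = 1.73e-05) and 27.4-fold with S + D (-4.78 ± 0.33, adjusted p = 4.89e-09). These calls were made in all 7 alternatives and without any 1 of the 8 libraries. An antisense gene, LINC01013, shares 11.9% of the exon bases of CCN2, but had 0 to 2 reads in each of the 32 libraries.

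CCN1 (ENSG00000142871, chromosome 1 from 86046444 to 86050272, plus strand) encodes CYR61, a matricellular protein of the same family. At 24 h it was at 94.5, 103, 103 and 183 CPM in the controls and at 60.1, 54.6, 58.4 and 54.2 CPM with S + D, with no overlap. It fell with S + D, with a log2 fold change of -1.05 ± 0.22 (edgeR adjusted p = 0.00101), or -0.78 in the numbered libraries. The controls of 72 h were at 142, 147, 145 and 104 CPM and the S + D libraries at 203, 168, 158 and 118 CPM, which overlapped. The log2 fold change was then 0.25 ± 0.20 (adjusted p = 0.283), with a 95% interval from -0.17 to 0.67. Sal at 72 h (0.32 ± 0.20) and Das at 72 h (-0.13 ± 0.20) did not pass the test either. Thus the related CCN1 and CCN2 were lower together with S + D at 24 h, whereas at 72 h CCN2 alone was called.

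ANKRD1 (ENSG00000148677, chromosome 10 from 92671853 to 92680844, minus strand) encodes CARP, an ankyrin repeat protein of the nucleus and the sarcomere. At 24 h it was at 2.84, 2.44, 3.07 and 4.51 CPM in the controls, 1.07, 1.60, 1.02 and 0.802 CPM with Das and 1.06, 0.639, 0.898 and 0.644 CPM with S + D. Both treated groups lay below all controls, with 27 to 52 reads per library for Das and 20 to 35 for S + D. ANKRD1 fell with Das (log2 fold change -1.505 ± 0.25, edgeR adjusted p = 0.000346) and with S + D (-1.95 ± 0.26, adjusted p = 1.45e-05), while Sal at 24 h gave -0.46 ± 0.24 (adjusted p = 0.228).

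For ANKRD1 the direction at 72 h was the opposite. The controls were at 3.52, 3.39, 3.20 and 4.85 CPM, the Sal libraries at 9.84, 10.0, 10.8 and 8.33 CPM and the S + D libraries at 15.7, 12.04, 13.1 and 9.71 CPM. Every Sal and S + D library was above every control, and the log2 fold changes were 1.37 ± 0.31 (edgeR adjusted p = 0.000982) and 1.74 ± 0.31 (adjusted p = 0.000107). Das did not give a uniform value at 72 h. Numbers 1 and 2 were at 5.28 and 6.22 CPM, above all controls, and number 3 and the unnumbered library were at 1.93 and 1.81 CPM, below all controls, with a log2 fold change of 0.01 ± 0.32 over the 4. The calls for Sal and S + D were made in all 7 alternatives and without any 1 of the 8 libraries.

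AMOTL2, AJUBA and LATS2 are targets that act back on the pathway. AMOTL2 (ENSG00000114019, chromosome 3 from 134074189 to 134094321, minus strand), an angiomotin family protein that binds and retains YAP, was at 196, 202, 208 and 268 CPM in the controls of 24 h and at 118, 113, 112 and 102 CPM with Das. With S + D at 24 h it was at 81.5, 84.1, 77.9 and 109 CPM. All Das and S + D libraries were below all controls, and AMOTL2 fell with Das (log2 fold change -0.95 ± 0.13, edgeR adjusted p = 7.63e-05) and with S + D (-1.28 ± 0.13, adjusted p = 1.48e-06). The Sal libraries of 24 h (147 to 222 CPM) overlapped the controls, and the change of -0.29 ± 0.13 was not called (adjusted p = 0.153). At 72 h the controls were at 244, 245, 276 and 244 CPM, the Das libraries at 123, 109, 84.5 and 131 CPM and the S + D libraries at 119, 141, 140 and 123 CPM. AMOTL2 was again lower with Das (-1.18 ± 0.13, adjusted p = 4.61e-06) and S + D (-0.96 ± 0.13, adjusted p = 3.73e-06). Sal gave 227, 190, 187 and 193 CPM, below all controls, but its log2 fold change of -0.36 ± 0.13 had an adjusted p of 0.0189.

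AJUBA (ENSG00000129474, chromosome 14 from 23440386 to 23451760, minus strand), a LIM domain protein that binds and inhibits LATS kinases, was at 32.1, 34.5, 36.7 and 46.0 CPM in the controls of 72 h and at 51.1, 45.5, 45.9 and 75.7 CPM with Sal. The groups overlapped, since the unnumbered control lay above 2 of the Sal libraries. AJUBA rose with Sal (log2 fold change 0.53 ± 0.16, edgeR adjusted p = 0.00833), but the call was lost without control number 1, 2 or 3 or Sal number 1 or the unnumbered Sal library (highest adjusted p 0.0428). In the numbered libraries alone it was called at 0.44 (adjusted p = 0.00208). At 24 h Das gave 58.4, 55.5, 57.4 and 67.0 CPM against 43.96, 44.3, 44.8 and 57.5 CPM in the controls (log2 fold change 0.34 ± 0.12, adjusted p = 0.0509), which was called in the paired fit at 0.35 (adjusted p = 0.0019). LATS2 (ENSG00000150457, chromosome 13 from 21547175 to 21635725, minus strand), a kinase that phosphorylates YAP, was at 23.5, 24.4, 25.01 and 22.9 CPM in the controls of 72 h and at 31.0, 31.5, 31.7 and 30.0 CPM with Sal, with no overlap. It rose with Sal by 0.36 ± 0.11 on the log2 scale (edgeR adjusted p = 0.00988), but this call was lost without any 1 of the 8 libraries (adjusted p from 0.0122 to 0.0288) and in the numbered libraries (0.35, adjusted p = 0.0271).

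Of the membrane proteins, F3 (ENSG00000117525, chromosome 1 from 94994729 to 95007315, minus strand), tissue factor, which starts blood coagulation, was at 39.3, 41.5, 42.8 and 70.3 CPM in the controls of 24 h, at 27.7, 28.9, 30.0 and 44.8 CPM with Sal, at 18.2, 18.3, 16.7 and 16.7 CPM with Das and at 14.8, 17.5, 15.6 and 22.2 CPM with S + D. Sal overlapped the controls through the unnumbered libraries, while Das and S + D lay below all of them. F3 fell with Das (log2 fold change -1.45 ± 0.19, edgeR adjusted p = 4.93e-05) and S + D (-1.44 ± 0.19, adjusted p = 1.79e-05). The change with Sal of -0.57 ± 0.19 did not pass (adjusted p = 0.0514) but was called at -0.56 in the paired fit (adjusted p = 0.00143). At 72 h F3 was at 56.7, 56.2, 48.3 and 75.0 CPM in the controls, at 28.9, 29.9, 28.5 and 38.7 CPM with Sal, at 24.6, 24.9, 20.8 and 20.8 CPM with Das and at 26.4, 26.4, 26.5 and 24.9 CPM with S + D. All 12 treated libraries were below all 4 controls, with log2 fold changes of -0.92 ± 0.14 for Sal (adjusted p = 1.44e-05), -1.38 ± 0.14 for Das (adjusted p = 2.06e-06) and -1.20 ± 0.14 for S + D (adjusted p = 8.62e-07).

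CRIM1 (ENSG00000150938, chromosome 2 from 36582921 to 36778278, plus strand), a transmembrane protein that binds bone morphogenetic proteins, was at 174, 170, 175 and 156 CPM in the controls of 24 h and at 103, 98.2, 100.4 and 58.3 CPM with S + D. It fell with S + D (log2 fold change -0.88 ± 0.22, edgeR adjusted p = 0.00395), although the adjusted p was 0.0104 without the unnumbered S + D library and 2.59e-11 among the numbered libraries. With Das at 24 h the log2 fold change of CRIM1 was -0.44 ± 0.22 and did not pass (adjusted p = 0.161), but it was called in the paired fit (adjusted p = 0.00127). In the controls of 72 h CRIM1 was at 169, 168, 166 and 147 CPM and in the S + D libraries at 73.7, 81.3, 84.0 and 54.6 CPM. The fall with S + D was then -1.16 ± 0.14 (adjusted p = 1.25e-06). The values for Sal (119 to 133 CPM) and Das (96.1 to 145 CPM) at 72 h also lay below all controls, but their log2 fold changes of -0.36 ± 0.14 and -0.38 ± 0.14 did not pass the test. In the numbered libraries CRIM1 was called with Sal at 72 h (-0.38, adjusted p = 0.00205) but not with Das (-0.31, adjusted p = 0.0146).

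AXL (ENSG00000167601, chromosome 19 from 41725128 to 41767671, plus strand), a receptor tyrosine kinase for GAS6, had few reads, 11 to 54 per library. At 72 h it was at 1.61, 1.03, 1.42 and 1.19 CPM in the controls, 0.560, 0.664, 0.460 and 0.432 CPM with Sal and 0.736, 0.785, 0.596 and 0.309 CPM with S + D, and neither drug group overlapped the controls. AXL fell with Sal (log2 fold change -1.32 ± 0.29, edgeR adjusted p = 0.000729) and with S + D (-1.12 ± 0.29, adjusted p = 0.00224). The S + D call was lost without the unnumbered S + D library (adjusted p = 0.0117). Das at 72 h also lay below all controls, but its log2 fold change of -0.63 ± 0.28 did not pass (adjusted p = 0.0877). At 24 h all 3 treatments lay below the controls with log2 fold changes from -0.77 to -0.64, of which none passed the test. S + D at 24 h was called in the paired fit (adjusted p = 0.00905).

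ARHGEF17 (ENSG00000110237, chromosome 11 from 73019321 to 73080433, plus strand), a guanine nucleotide exchange factor, rose at 72 h. It was at 69.5, 75.2, 95.3 and 90.8 CPM in the controls, at 172, 132, 127 and 162 CPM with Sal and at 97.6, 129.8, 133 and 129 CPM with S + D. No library of either treatment reached down to the controls, and the log2 fold changes were 0.82 ± 0.16 for Sal (edgeR adjusted p = 0.0002) and 0.55 ± 0.16 for S + D (adjusted p = 0.00524). The S + D call was lost without control number 1 or 2 or S + D number 2 or 3 (adjusted p of up to 0.0237). An antisense gene, ARHGEF17-AS1, shares 9.9% of the exon bases of ARHGEF17, and its reads moved the same way, from 10 to 26 per library in the controls of 72 h to 76 to 96 with Sal and 59 to 107 with S + D. ARHGEF17 itself had 2076 to 3429 reads per library in the controls of 72 h, 3588 to 6361 with Sal and 3051 to 4957 with S + D. Since it is not stated that strand was used in counting, reads of the shared bases cannot be assigned.

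The drugs were then compared with each other, in comparisons that share libraries with those above. At 24 h, 4 genes were called between S + D and Sal (12.9% of all genes tested), all lower with S + D: CCN2 (log2 difference -2.69 ± 0.43, edgeR adjusted p = 0.00031), ANKRD1 (-1.498), AMOTL2 (-0.98) and F3 (-0.86). The call of F3 was lost without S + D number 1, 2 or 3 (adjusted p of up to 0.0170), and the paired fit, which called 27.6% of all genes, added CCN1 (-0.63) and CRIM1 (-0.57). Between S + D and Das, 2 genes were called (8.49%), CCN2 (-2.25 ± 0.43, adjusted p = 0.00213) and AJUBA (-0.57 ± 0.12, adjusted p = 0.00468), both lower with S + D. CCN2 was not called without S + D number 1 (adjusted p = 0.0106) nor AJUBA without any of 5 libraries, Das number 1 and the unnumbered Das library and S + D number 1, 2 and 3 (adjusted p of up to 0.0180), and the paired fit called 4 genes (22% of all), with CCN1 (-0.61) and CRIM1 (-0.42) added. Between Sal and Das, 4 genes were called (8%). ANKRD1 (1.05), AMOTL2 (0.66) and F3 (0.88) were higher with Sal and AJUBA (-0.57) was lower, but leaving out any 1 library other than Das number 2 left at most 2 of these calls, and AMOTL2 alone was retained in 7 of the 8 fits.

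At 72 h, 3 genes were called between S + D and Sal (3.01%), all lower with S + D: CCN2 (log2 difference -3.06 ± 0.31, edgeR adjusted p = 1.65e-05), CRIM1 (-0.80 ± 0.14, adjusted p = 0.0015) and AMOTL2 (-0.61 ± 0.13, adjusted p = 0.00625). The call of AMOTL2 was lost when any 1 library other than the unnumbered Sal library was left out, and adjusted p was 0.0142 in the numbered libraries. Between S + D and Das, 3 genes were called (32.1%), ANKRD1 higher (1.73 ± 0.31, adjusted p = 0.000283) and CCN2 (-2.51 ± 0.31, adjusted p = 8.92e-06) and CRIM1 (-0.79 ± 0.14, adjusted p = 0.000194) lower with S + D. Between Sal and Das, 3 genes were called (32.2%), all higher with Sal: ANKRD1 (1.36), AMOTL2 (0.82) and ARHGEF17 (0.63), the last not without Sal number 1 or Das number 3. CCN2 and CRIM1 were thus lower with both drugs than with either drug at 72 h, and ANKRD1 differed between S + D and Das but had an interval of -0.26 to 1.01 between S + D and Sal.

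**Figure D3:**
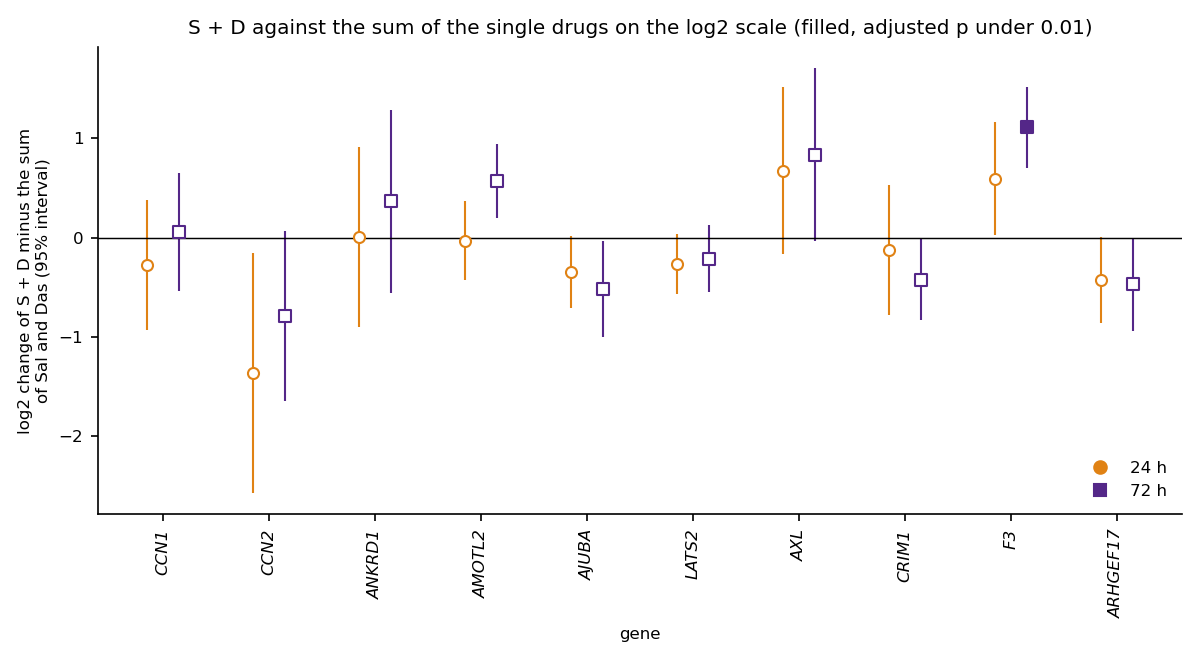
Difference between the log2 fold change of S + D and the sum of those of Sal and Das, for each gene at 24 h (circles) and 72 h (squares), with 95% intervals. At 0 the combined response equals the sum; F3 at 72 h (1.11) is the filled point, which passed an adjusted p of 0.01.

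Whether S + D differed from the sum of both drugs was tested as an interaction on the log2 scale. At 24 h, 0 genes were called (0.0306% of all genes tested), while 2 had an unadjusted p under 0.05 and DESeq2 called 0. Of 30783 genes with a count, DESeq2 called 16 above and 124 below the sum. At 72 h, 1 gene was called (7.52%): F3, for which S + D was 1.11 ± 0.19 above the sum (edgeR adjusted p = 0.00123). The log2 difference of F3 between S + D and Das at 72 h was 0.19 ± 0.14, with an interval from -0.10 to 0.47. For CCN2 the difference from the sum was -1.36 ± 0.57 at 24 h and -0.79 ± 0.41 at 72 h, neither of which passed, although among the numbered libraries it was -1.55 (adjusted p = 8.23e-05, with 5.09% of all genes called) and -1.16 (adjusted p = 0.00287, with 12.9%). For ANKRD1 the interval at 72 h ran from -0.55 to 1.28.

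The time points were compared in a fit of all 32 libraries. The paired fit of these comparisons used blocks shared by 24 h and 72 h, although the numbers were not taken to pair at 72 h. Whether the numbers pair libraries across the times was not tested. Between the controls of 72 h and 24 h, 0 genes were called (2.76% of all genes tested), with 1 at an unadjusted p under 0.05 and 0 by DESeq2. Of 33132 genes with a count, DESeq2 called 565 higher and 301 lower at 72 h. In the numbered libraries 3 were called, CCN1 (0.53, adjusted p = 0.00216) and F3 (0.38, adjusted p = 0.00254) higher and AJUBA (-0.37, adjusted p = 0.00243) lower at 72 h, where 11% of all genes were. CCN2 had -0.47 over all libraries and 0.22 in the numbered ones, neither of which passed, and the paired fit called AJUBA (-0.35, adjusted p = 0.00559).

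The response to Sal differed between the times for 2 genes (21.9%), ANKRD1 (72 h minus 24 h, 1.83 ± 0.41, edgeR adjusted p = 0.00101) and AJUBA (0.76 ± 0.21, adjusted p = 0.00592), and the AJUBA call was lost when any 1 of 8 libraries was left out (the unnumbered control of 24 h, Sal number 1, 2 or 3 of 24 h, control number 1, 2 or 3 of 72 h or the unnumbered Sal library of 72 h). In the numbered libraries CCN1 (0.70, adjusted p = 0.00106), CCN2 (-1.08, adjusted p = 0.000167), F3 (-0.39, adjusted p = 0.0092) and ARHGEF17 (0.74, adjusted p = 0.00276) were called as well, 6 genes in all against 39.3% of all genes. CCN2 was also called without the unnumbered control of 24 h, CCN1 and ARHGEF17 without the unnumbered Sal library of 24 h, and ARHGEF17 in the paired fit (0.62, adjusted p = 0.00883).

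The response to Das differed for 0 genes (0.226%), with 1 at an unadjusted p under 0.05, ANKRD1 (1.54 ± 0.42, adjusted p = 0.067), and 0 by DESeq2. Of 33132 genes with a count, DESeq2 called 48 higher and 123 lower. Without Das number 3 of 72 h, ANKRD1 was called (adjusted p = 0.00872), and in the numbered libraries CCN2 was (-1.10, adjusted p = 0.0021, against 3.56% of all genes). The response to S + D differed for 2 genes (16.3%). For ANKRD1 the difference was 3.75 ± 0.43 (adjusted p = 5.11e-07), the turn from a fall at 24 h to a rise at 72 h, and for CCN1 it was 1.35 ± 0.31 (adjusted p = 0.00188). Both were called without any 1 of the 16 libraries. For CCN2 the difference of -1.15 ± 0.55 did not pass, but was -1.79 (adjusted p = 8.96e-06) in the numbered libraries and was called without the unnumbered control of 24 h (adjusted p = 0.00249). AJUBA (0.52, adjusted p = 0.000883) and CRIM1 (-0.29, adjusted p = 0.00907) were also called in the numbered libraries, against 31.5% of all genes, and AJUBA in the paired fit (0.55, adjusted p = 0.00083).

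The genes of the coactivators, YAP1 and WWTR1 (TAZ), fell with Sal and S + D at 72 h, and of the TEAD genes, whose products carry them to DNA, TEAD2, TEAD3 and TEAD4 fell with all 3 treatments at 72 h. YAP1 was at 262 ± 1.90 CPM (SD, n = 4) in the controls of 24 h and at 213 ± 12.8 CPM with S + D, and at 72 h it was at 261 ± 14.9 CPM in the controls, 138 ± 13.8 CPM with Sal, 217 ± 28.9 CPM with Das and 117 ± 11.9 CPM with S + D. The falls of YAP1 with Sal (log2 fold change -0.94 ± 0.11, edgeR adjusted p = 2.03e-06) and S + D (-1.18 ± 0.12, adjusted p = 1.67e-07) at 72 h passed the test and that with Das (-0.28 ± 0.11, adjusted p = 0.0687) did not. WWTR1 fell at 72 h with Sal (-1.16 ± 0.20) and S + D (-1.39 ± 0.20) and gave -0.50 ± 0.20 with Das (adjusted p = 0.0625). TEAD4 was at 35.9 ± 2.49 CPM in the controls of 72 h and fell to 8.46 ± 1.75 CPM with Sal (-2.10 ± 0.21), 14.6 ± 5.24 CPM with Das (-1.31 ± 0.21) and 3.59 ± 0.529 CPM with S + D (-3.34 ± 0.23, adjusted p = 5.14e-09). TEAD2 (-2.31 ± 0.21) and TEAD3 (-1.003 ± 0.13) fell with S + D at 72 h, whereas TEAD1 gave -0.50 ± 0.16 (adjusted p = 0.0108) and was not called in any comparison with the control.

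**Figure D4:**
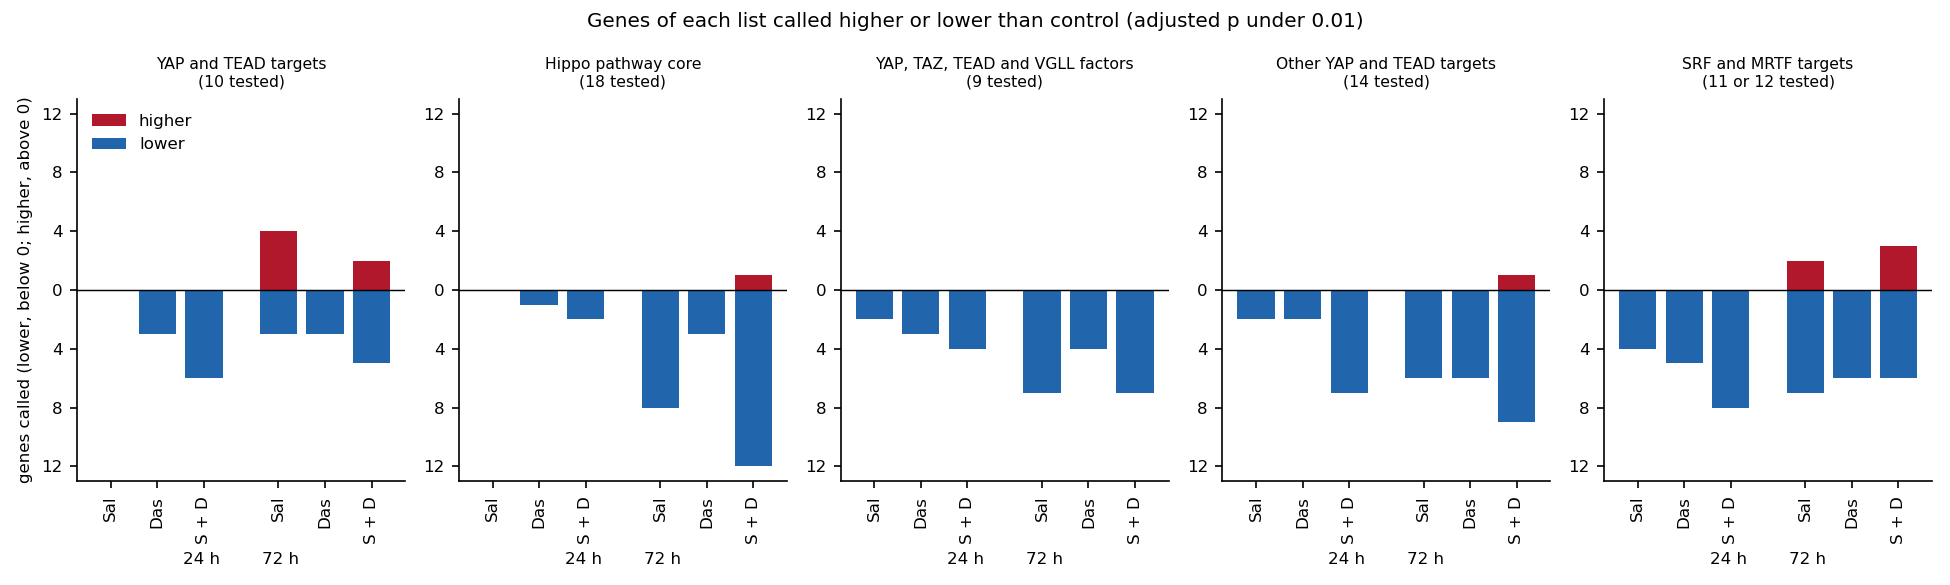
Number of genes of each list called higher (red, above 0) or lower (blue, below 0) than control at an adjusted p under 0.01, for Sal, Das and S + D at 24 h and 72 h. The 10 YAP and TEAD targets are on the left. With S + D at 72 h, 12 of 18 genes of the Hippo pathway core are called lower. Of the YAP, TAZ, TEAD and VGLL genes 7 of 9 are, against 27.9% of all genes tested.

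Of 9 genes for YAP, TAZ, TEAD and VGLL factors that were tested (VGLL2 was not), the counts called lower at 24 h were 2 (Sal), 3 (Das) and 4 (S + D), and those at 72 h were 7, 4 and 7. Of all genes tested, 2.23%, 6.88% and 16.5% were called lower at 24 h, and 26.8%, 9.36% and 27.9% at 72 h. With S + D at 72 h, 27% of all genes were called higher. The median log2 fold change with S + D at 72 h was -1.18, and the extremes were VGLL3 (0.50 ± 0.38, not called) and TEAD4. Of 18 genes of the Hippo pathway core, 0, 1 and 2 were called lower at 24 h with Sal, Das and S + D, and 8, 3 and 12 at 72 h. Only RASSF1, a scaffold that binds STK3 and STK4, was called higher, with S + D at 72 h (0.84 ± 0.25), and the lowest value of that comparison was that of AMOT, an angiomotin (-1.49 ± 0.19). In the paired fit of 24 h the counts called lower with Sal, Das and S + D were 5, 6 and 6 for the factors and 3, 5 and 7 for the core.

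Of 14 other YAP and TEAD targets that were tested (RBMS3 was not), 2, 2 and 7 were called lower at 24 h with Sal, Das and S + D, and 6, 6 and 9 at 72 h. The shares of all genes called lower are those given with the factors. Only GADD45A, a stress and growth arrest gene, was called higher, with S + D at 72 h (log2 fold change 0.94 ± 0.17), and FOXF2, a forkhead transcription factor, had the lowest value of that comparison (-2.94 ± 0.43). Of 12 targets of SRF and its coactivators MRTF, of which 11 were tested at 24 h, 4, 5 and 8 were called lower at 24 h and 7, 6 and 6 at 72 h. Higher at 72 h were 2 with Sal and 3 with S + D, against 26.3% and 27% of all genes tested. MYL9, a regulatory light chain of myosin, fell at 24 h with S + D (-2.05 ± 0.24) and rose at 72 h (3.09 ± 0.46), as ANKRD1 did, while TPM1, a tropomyosin, fell at both times (-1.03 ± 0.11 and -1.92 ± 0.11). In the paired fit of 24 h the counts called lower were 5, 6 and 10 for the other targets and 8, 7 and 9 for the SRF targets. Of all genes tested in the paired fit of 24 h, the shares called lower were 8.71% (Sal), 14% (Das) and 24.5% (S + D), and the shares in the unpaired fit are those given above.

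Over the 32 libraries, which share conditions and the unnumbered libraries, the log2 CPM of the 10 genes did not follow a common course. The Pearson correlation, given as a description, was 0.91 between AMOTL2 and F3, 0.86 between CCN1 and ANKRD1 and 0.74 between CCN2 and CRIM1. It was 0.07 between CCN1 and CCN2 and -0.23 between CCN2 and ANKRD1. After the mean of each condition was taken away, CCN1 and CCN2 had a correlation of 0.73, and AMOTL2 and ARHGEF17 had the highest, 0.85. The deviation of the unnumbered libraries is part of what remains, and its share in these values was not tested. Of 13397 genes with a mean of at least 1 CPM, the genes most like CCN2 outside the lists were SLC1A3 (0.91), CCND1 (0.91) and GRAMD2A (0.90). Those most like ANKRD1 were CPT2 (0.90), SCEL (0.89) and CTNNAL1 (0.89), and those most like CCN1 were MYL12A, BPGM and GNAS (0.82 each).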

How the data were processed

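RNA-seq was performed on 32 libraries of MDA-MB-468 cells. Per the labels and the methods of the study, libraries were made with the Illumina TruSeq RNA kit and sequenced as single-end 50-base reads, and the authors used bcl2fastq 2.19, STAR 2.5.2 on GRCh37 and Cufflinks 2.1.1. The deposited table holds whole-number read counts per Ensembl gene, without normalization. The counting program and its use of strand are not given in the sources used here. The columns without a replicate number were matched to their conditions by name.

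Of 48804 identifiers, 46537 matched the annotation. Counts were filtered with filterByExpr (minimum count 10), scaled by TMM and tested with edgeR 4.0.16 (glmQLFit, glmQLFTest), in 1 fit of 16 libraries per time point (16357 genes at 24 h and 16682 at 72 h) and 1 of 32 libraries (17227 genes) for comparisons of times. Standard errors are the log2 fold change divided by the root of the F statistic, 95% intervals use the t distribution with the degrees of freedom of the test, and CPM values use the TMM-scaled totals. The steps were tested on simulated data. The intervals cover the spread between these libraries. Sequencing depth limits AXL most, and also ANKRD1 at 24 h and CCN2 with S + D at 72 h. Alternatives were RLE size factors, no filter, a replicate block, a term for the unnumbered libraries, the numbered libraries only, only the groups compared, DESeq2 1.42.0 and each library left out in turn.

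At 24 h, deviations from the group means correlated across genes in every same-numbered pair (0.13 to 0.32) and among the unnumbered libraries (0.59 to 0.67). Pairs with different numbers ran from -0.52 to 0.35, with a median of -0.06, so the ranges overlapped. The numbers were taken to pair the libraries of that time, and paired values are given where they change a call at 24 h or between the times. At 72 h same-numbered pairs ran from -0.03 to 0.25 and the unnumbered ones from 0.52 to 0.61, and the numbers were not taken to pair. The 10 genes and the 4 other lists (all members are named in counts, the text giving the highest and the lowest value with S + D at 72 h and YAP1, WWTR1 and the TEAD genes) were chosen with earlier results of these data known. Promoter windows came from RefSeq on GRCh38.p14, and gene coordinates are on GRCh37.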

Additional observations from a re-analysis of the deposited data

Results flagged for a closer look

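In 20 of 80 sets of 4 libraries (10 genes in 8 conditions), 1 library stood apart from the other 3, where chance flags about 1 in 20 sets. The library was unnumbered in 17 of these sets.

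At 24 h, the unnumbered library was the highest for CCN1 in the controls (183 CPM against 94.5 to 103) and with Sal (149), for CCN2 in the controls (62.7 CPM against 15.9 to 19.9) and with Das (17.0), for AMOTL2 (268) and AJUBA (57.5) in the controls, and for F3 in the controls (70.3) and with Sal (44.8). It was the lowest for CRIM1 with Sal (97.5), Das (70.6) and S + D (58.3). At 72 h it was the lowest for CCN1 in the controls (104) and with Sal (125), for CRIM1 in the controls (147) and for F3 with S + D (24.9), and the highest for AJUBA with S + D (51.1) and for F3 with Sal (38.7). CCN1 thus had its unnumbered library above the rest of the controls at 24 h and below them at 72 h. The numbered libraries that stood apart were control number 3 (276) and Sal number 1 (227) of 72 h for AMOTL2 and S + D number 1 of 72 h for ARHGEF17 (97.6).

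The response differed between 72 h and 24 h for ANKRD1 with Sal (difference of log2 fold changes 1.83) and with S + D (3.75), for AJUBA with Sal (0.76) and for CCN1 with S + D (1.35), each at an adjusted p under 0.01 in edgeR.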

How the results depend on the processing

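Over 18 counts of called genes and their alternatives, 262 of 304 counts were within 1.5 times the reported count, and of 3040 log2 fold changes of single genes 0 reversed a call, 78 lost one and 90 gained one. The replicate block paired libraries by number and put the unnumbered ones in a block of their own. With it, 1 gene was called with Sal (0 without it), 6 with Das (3) and 4 between S + D and Das (2) at 24 h. It called 5 between Sal and Das at 72 h (3) and 1 between the controls of 72 h and 24 h (0). The block moved no other count by over 1.5 times. At 72 h the block added CRIM1 with Sal (-0.36, adjusted p = 0.00223) and Das (-0.39, adjusted p = 0.00281). Between Sal and Das it added CCN1 (0.46, adjusted p = 0.00161) and F3 (0.45, adjusted p = 0.00519). Between S + D and Das it added CCN1 (0.38, adjusted p = 0.00586). In the numbered libraries alone CCN1 and F3 did not pass in these comparisons (adjusted p = 0.0260, 0.0302 and 0.0549, in the same order). With a term for the unnumbered libraries, the counts that the block moved were 2, 7, 5, 5 and 1. That term called 22.2%, 31%, 25.8%, 43.7% and 9.03% of all genes, in the same order. In the numbered libraries alone, 6 genes were called with Sal at 24 h, 9 with Das at 24 h, 7 between S + D and Das at 24 h, 3 for the interaction at 24 h (0), 2 for the interaction at 72 h (1), 3 between the control times, 6 for the Sal response over time (2), 1 for the Das response (0) and 5 for the S + D response (2). Of all genes tested, these fits of the numbered libraries called 23.5%, 39.3%, 32.9%, 5.09%, 12.9%, 11%, 39.3%, 3.56% and 31.5%, in the same order, and the fits with the block called 18.7%, 27.4%, 22%, 42.6% and 8.48%. A fit of only the groups compared called 0 genes between Sal and Das at 24 h (4) and 1 at 72 h (3). Of all genes, that fit called 148 of 15703 higher and 258 lower at 24 h, and 1531 of 15708 higher and 1813 lower at 72 h. No filter on low counts called 1 for the Sal response, where 1076 of 33132 genes were called higher and 2140 lower. Each library was also left out in turn, and no share of all genes was taken for these fits. They gave 0 to 2 genes between S + D and Das at 24 h and 0 to 3 between Sal and Das at 24 h. For the Sal response they gave 1 to 4, and for the Das response 0 to 1, the last without Das number 3 of 72 h. The cause was not tested. All libraries come from 1 line. There were 23 to 33 reads of CCN2 with S + D at 72 h and 11 to 54 of AXL. ANKRD1 had 20 to 35 reads with S + D at 24 h. Counting error is part of the spread of these genes.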
